A study of Homo sapiens with 6 samples.

Results

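Genes of fatty acid synthesis and lipid storage were followed in a human hepatocellular carcinoma (HCC) cell line whose name the labels do not give. The members were a list of 35 genes: the rows of the deposited expression table whose Ensembl IDs carry those symbols in GENCODE release 29. All 35 were found among the 58676 genes of the table, and 32 of them reached the level needed for a test. RNA was sequenced from 3 libraries labelled knockdown, whose titles name a sponge, and from 3 libraries labelled control, all grown in DMEM with 10% serum. A sponge is a transcript carrying binding sites that take up a microRNA, here miR-19a according to the series title. Because the title mentions treatment and the design text mentions knockdown, the direction used here is that of the group labels. No label names the promoter, the clone or the time after treatment. Knockdown replicate 2 was left out because its values were out of order against the gene IDs: its rank correlation across genes with the other libraries was 0.017 to 0.019, against 0.82 to 0.89 among the other 5. The groups compared were therefore knockdown replicates 1 and 3 and control replicates 1, 2 and 3.

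Liver cells build fatty acids from acetyl-CoA. Citrate exported from mitochondria is cleaved to acetyl-CoA, acetyl-CoA carboxylase turns it into malonyl-CoA, and fatty acid synthase joins these units into palmitate with NADPH as the reductant. Elongases and desaturases reshape the product, acyl-CoA synthetases activate it, and a chain of acyltransferases and a phosphatase attach it to glycerol to make triglyceride, which is kept in droplets coated by perilipins. The transcription factors SREBP-1 and ChREBP drive many of these genes in the liver.

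miR-19a and its near relative miR-19b pair with messages through the same seed, bases 2 to 8, shown in capitals in the mature sequences of RefSeq (GRCh38.p14, plus strand of chromosome 13), because this seed defines the sites looked for in the lipid genes.
hsa-miR-19a-3p, chr13:91350939-91350961: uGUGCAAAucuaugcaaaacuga
hsa-miR-19b-3p, chr13:91351245-91351267: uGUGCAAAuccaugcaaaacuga

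Reads assigned to genes came to 9296308 and 15198231 in knockdown replicates 1 and 3 and to 9181567, 1948940 and 19605312 in control replicates 1, 2 and 3, so control replicate 2 is the least precise library. The labelled tissue was checked with 9 hepatocyte markers, all above 0.5 RPKM in at least 1 library, whose levels summed to 1689 and 1762 RPKM in the knockdown libraries and 1520 to 1900 RPKM in the controls. Of 6 adipocyte markers, ADIPOQ, LEP and LPL were listed at 0 in all 5 libraries, and the 6 summed to 4.89 and 5.23 RPKM in the knockdown libraries and 2.26 to 5.60 RPKM in the controls. The 4 endothelial markers summed to at most 0.760 RPKM in any library. The 6 immune markers summed to 46.2 and 52.4 RPKM in the knockdown libraries and 44.3 to 51.4 RPKM in the controls. For 6 fibroblast markers the sums were 68.2 to 72.4 RPKM in the knockdown libraries and 63.7 to 83.5 RPKM in the controls, and LUM, a matrix proteoglycan, made up most of them. The sums hide single markers whose groups lay apart. COL1A1 and COL1A2, collagen genes of fibroblasts, were higher in both knockdown libraries than in any control, with ratios of mean RPKM, knockdown over control, of 1.71 and 1.43, and PDGFRA, a growth factor receptor, lay below at 0.472. The T cell marker CD3D lay above at 1.61. The endothelial marker PECAM1, at 0.322 to 0.661 RPKM over the 5 libraries, lay below at 0.590. Among hepatocyte markers SERPINA1 and TF, of secreted plasma proteins, lay above at 1.45 and 1.34, and APOB, of lipoprotein particles, lay below at 0.554. The part of these markers in the results was not tested. In bulk RNA, fewer cells of a type and less RNA per cell cannot be told apart.

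ACLY, ME1, ACACA, FASN, FADS2 and GPAM, of fatty acid supply, synthesis, desaturation and esterification, stood lower in both knockdown libraries than in any control, and the droplet coat gene PLIN2 stood higher, but none passed the test over all genes. Of the 32 members tested, 22 had a log2 difference (knockdown minus control, of log2(RPKM + 0.5)) below 0, against 50.0% of all 15408 genes tested, and the median was -0.21 for the members and 0.00 for all genes. Both knockdown libraries lay below all 3 controls for 12 members, or 37.5%, against 13.6% of all genes, and above all 3 controls for 4 members, or 12.5%, against 14.3% of all genes. The 12 were ACLY, ME1, ACACA, FASN, FADS1, FADS2, ELOVL2, ELOVL6, ACSL4, GPAM, DGAT2 and PNPLA3, and the 4 were FADS3, PLIN2, PNPLA2 and MLXIPL. The list was chosen with earlier results of these data known, so its shares beside those of all genes are a description and no independent test. No member passed limma's test at an adjusted p under 0.05 over all genes, and neither did any other gene (0.00%): the lowest adjusted p of a member was 0.71, also the lowest of any gene, and the highest of a member was 0.999. At limma's unadjusted p under 0.05, 6 of the 32 tested members were lower, against 2.54% of all genes. At the same threshold 1 of the 32 was higher, a share close to the 3.80% of all genes. By limma voom with sample weights on the recovered reads 3 genes passed as higher and 1 as lower, none of them a member. The members' median was -0.09 without knockdown replicate 3, -0.13 without control replicate 3 and -0.11 after removing, library by library, the trends with exon length and GC content. The count below all controls was 19 without knockdown replicate 1, against 29% of all genes. The count above was 7 without knockdown replicate 1, against 26.8% of all genes, and 7 without control replicate 3, against 24.3%. With length and GC trends removed FADS1, DGAT2 and MLXIPL no longer lay apart from the controls and ACSL3 did. The part of length and GC content in the members' values was not tested further.

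**Figure D1:**
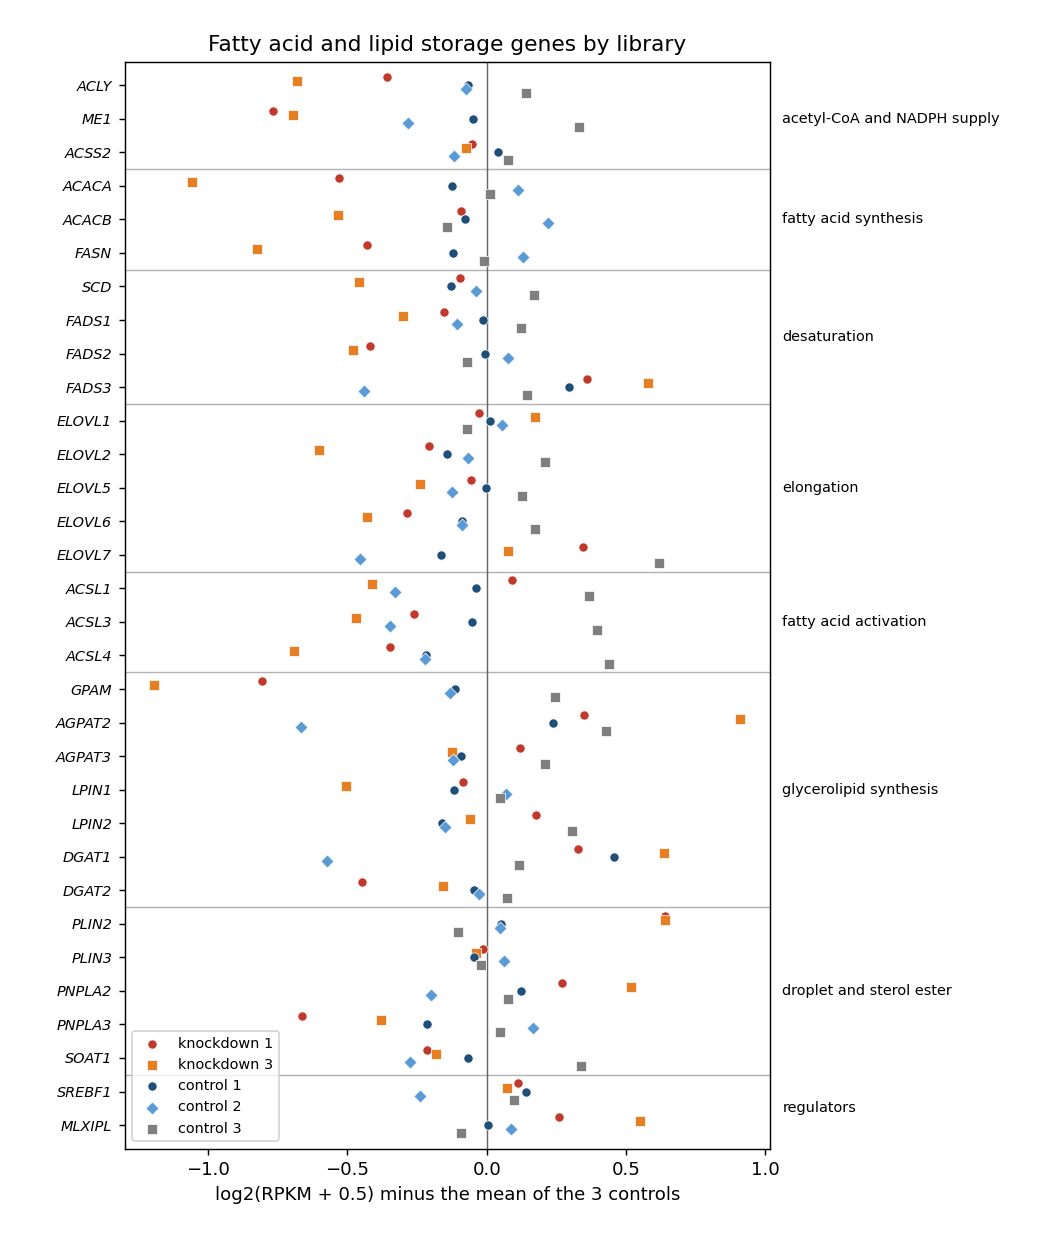
Level of each of the 32 tested genes in each library, as log2(RPKM + 0.5) minus the mean of the 3 controls (x axis), grouped by step of the pathway; red and orange points are knockdown libraries, and blue and grey points controls. The knockdown points of ACLY, ME1, ACACA, FASN, FADS2 and GPAM lie left of all control points, and those of PLIN2 lie right of them.

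The supply of acetyl-CoA and NADPH came first in the pathway, and 2 of its 3 genes stood lower. ACLY (ENSG00000131473, chromosome 17 from 41866908 to 41930542 of GRCh38), the ATP citrate lyase that makes cytosolic acetyl-CoA, was at 43.4 and 34.6 RPKM in knockdown replicates 1 and 3, against 53.2, 53.0 and 61.5 RPKM in control replicates 1, 2 and 3. The groups did not overlap, and the log2 difference was -0.52 (SE 0.17, limma adjusted p = 0.71). ME1 (chromosome 6 from 83210389 to 83431071), the malic enzyme that yields NADPH, was at 18.7 and 19.7 RPKM in the knockdown libraries, against 31.0, 26.3 and 40.6 RPKM in the controls. Its knockdown libraries were nearly alike while its controls spread widely, and the log2 difference was -0.73 (SE 0.22). ACSS2, the enzyme that makes acetyl-CoA from acetate, was at 10.5 and 10.3 RPKM in knockdown, against 11.2, 10.0 and 11.5 RPKM in control. Here the groups overlapped, with a log2 difference of -0.06 (SE 0.15).

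ACACA and FASN, the genes of the main steps of synthesis, stood lower in both knockdown libraries. ACACA (ENSG00000278540, chromosome 17 from 37084988 to 37406818), the cytosolic acetyl-CoA carboxylase, was at 6.42 and 4.30 RPKM in knockdown replicates 1 and 3, against 8.66, 10.3 and 9.57 RPKM in control replicates 1, 2 and 3. The knockdown mean was 5.36 ± 1.50 RPKM (SD, n = 2) and the control mean 9.51 ± 0.821 RPKM (SD, n = 3). Its log2 difference was -0.79 (SE 0.21, limma adjusted p = 0.71), or -0.53 without knockdown replicate 3. FASN (ENSG00000169710, chromosome 17 from 82078333 to 82098332), the fatty acid synthase, was at 64.8 and 49.2 RPKM in knockdown, against 80.5, 95.8 and 87.0 RPKM in control. It rested on 5640 and 6998 reads in the knockdown libraries and on 1748 to 15967 reads in the controls, and its log2 difference was -0.63 (SE 0.19, limma adjusted p = 0.71), a ratio of mean RPKM, knockdown over control, of 0.649. ACACB, the carboxylase isoform at the mitochondrial surface that restrains fatty acid oxidation, was low in every library, at 0.986 and 0.594 RPKM in knockdown and 0.999, 1.34 and 0.935 RPKM in control. One knockdown library lay within the range of the controls, and the log2 difference was -0.31 (SE 0.26), or -0.53 without knockdown replicate 1, -0.09 without knockdown replicate 3 and -0.20 without control replicate 2.

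**Figure D2:**
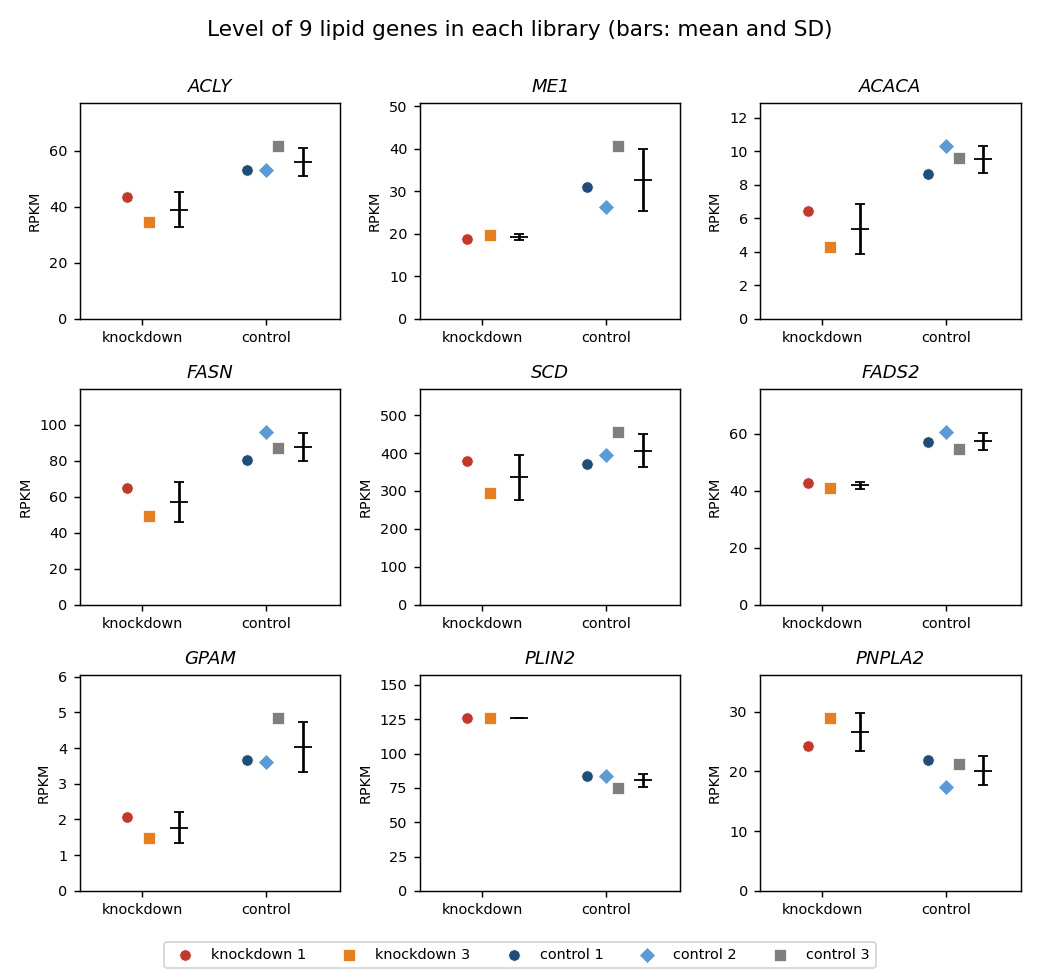
RPKM of 9 genes in each library (y axes start at 0), with knockdown left of control; black bars give the mean and SD of the 2 knockdown and 3 control libraries. ACACA averaged 5.36 RPKM in knockdown and 9.51 RPKM in control, and PLIN2 125.7 RPKM in knockdown and 80.6 RPKM in control, while SCD overlapped between the groups.

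Among the desaturases, FADS2 had the largest shortfall and SCD, the most abundant member, overlapped. SCD, the stearoyl-CoA desaturase that makes oleate, was at 379 and 294 RPKM in the knockdown libraries, against 369.8, 394 and 455 RPKM in the controls. Knockdown replicate 1 lay above control replicate 1, so the groups overlapped at a log2 difference of -0.28 (SE 0.21). Leaving out knockdown replicate 1 gave -0.46, and leaving out knockdown replicate 3 gave -0.10. FADS2 (chromosome 11 from 61792980 to 61867354), the delta-6 desaturase of polyunsaturated fatty acids, was at 42.8 and 41.0 RPKM in knockdown, against 57.1, 60.5 and 54.6 RPKM in control, a log2 difference of -0.45 (SE 0.14, limma adjusted p = 0.71). FADS1, the delta-5 desaturase on the opposite strand of the same locus, was at 24.0 and 21.6 RPKM in knockdown, against 26.5, 24.8 and 29.1 RPKM in control. Its log2 difference of -0.23 (SE 0.15) was -0.09 with length and GC trends removed. FADS1 and FADS2 share 490 exon bases on opposite strands, and without strand information their reads there cannot be told apart. FADS3, the third gene of the cluster, was at 8.18 and 9.61 RPKM in knockdown, against 7.80, 4.49 and 6.99 RPKM in control. It stood higher by 0.47 (SE 0.26), or by 0.25 without control replicate 2.

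The elongases were more even. ELOVL6, which extends palmitate to stearate, was at 5.88 and 5.27 RPKM in the knockdown libraries, against 6.82, 6.82 and 8.28 RPKM in the controls, a log2 difference of -0.36 (SE 0.17) that was -0.17 with length and GC trends removed. ELOVL2, an elongase of long polyunsaturated chains, was at 13.7 and 10.3 RPKM in knockdown, against 14.3, 15.1 and 18.4 RPKM in control. Knockdown replicate 1 sat just under control replicate 1, and the log2 difference was -0.40 (SE 0.20), or -0.21 without knockdown replicate 3. The groups overlapped for ELOVL1, which extends saturated and monounsaturated chains to very long ones, at a log2 difference of 0.07 (SE 0.15) that turned to -0.03 without knockdown replicate 3 and to -0.09 with length and GC trends removed. ELOVL5 was at 27.5 to 31.3 RPKM in knockdown and 29.9 to 35.6 RPKM in control, and ELOVL7 at 4.59 to 5.64 RPKM in knockdown and 3.03 to 6.91 RPKM in control. The groups thus also overlapped for ELOVL5, an elongase of polyunsaturated chains, at -0.15 (SE 0.15), and for ELOVL7, an elongase of saturated long chains, at 0.21 (SE 0.35). Leaving out 1 library moved ELOVL5 between -0.24 and -0.06, and ELOVL7 between -0.02, without control replicate 2, and 0.52, without control replicate 3. ELOVL1 was the most abundant elongase, with a mean of 76.4 ± 7.61 RPKM (SD, n = 2) in knockdown and 72.5 ± 3.21 RPKM (SD, n = 3) in control.

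Acyl-CoA synthetases, which activate free fatty acids, had log2 differences below 0 for all 3 tested members, and only ACSL4 had groups apart. ACSL4, which prefers arachidonate, was at 37.5 and 29.4 RPKM in knockdown replicates 1 and 3, against 41.1, 41.0 and 65.0 RPKM in control replicates 1, 2 and 3. Control replicate 3 stood far above the other controls, and the log2 difference of -0.52 (SE 0.26) was -0.30 without it. ACSL3, which serves growing lipid droplets, was at 21.5 and 18.6 RPKM in knockdown, against 25.0, 20.3 and 34.2 RPKM in control, a log2 difference of -0.37 (SE 0.25) with overlapping groups that was -0.17 without control replicate 3. ACSL1, a main synthetase of hepatocytes, was at 7.70 and 5.30 RPKM in knockdown and 5.63 to 9.45 RPKM in control, and overlapped at -0.16 (SE 0.28) and turned to 0.09 without knockdown replicate 3 and to 0.02 without control replicate 3. ACSL5, another synthetase of the liver, stayed under the test level, with 10 and 21 reads in the knockdown libraries and 7, 1 and 21 reads in the controls.

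The first step of glycerolipid synthesis had the largest difference of all 32 tested members. Of the genes of the last step, DGAT2 stood lower with groups apart and DGAT1 overlapped. GPAM (ENSG00000119927, chromosome 10 from 112149864 to 112215377), the mitochondrial glycerol-3-phosphate acyltransferase, was at 2.07 and 1.47 RPKM in knockdown replicates 1 and 3, against 3.66, 3.61 and 4.84 RPKM in control replicates 1, 2 and 3. The values rest on 189 and 219 reads in the knockdown libraries and 330, 69 and 930 reads in the controls. Its log2 difference was -1.0 (SE 0.23, limma adjusted p = 0.71, unadjusted p = 0.0057), and the ratio of mean RPKM, knockdown over control, was 0.439. With length and GC trends removed it was -0.79, and leaving out any 1 library kept both remaining groups apart.

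Acyltransferases of the later steps followed no common direction. AGPAT2, which adds the second acyl chain, was at 117 and 172 RPKM in knockdown, against 107.6, 57.4 and 123 RPKM in control, and its log2 difference of 0.63 (SE 0.38) was 0.30 without control replicate 2, the shallowest library, and 0.35 without knockdown replicate 3. DGAT2, which makes triglyceride from newly made fatty acids, was at 4.10 and 5.13 RPKM in knockdown, against 5.58, 5.65 and 6.10 RPKM in control. It differed by -0.30 (SE 0.17), without overlap, or by -0.16 without knockdown replicate 1. DGAT1, the other enzyme of that step, whose exons share 139 bases with HSF1, was at 6.69 and 8.39 RPKM in knockdown, against 7.36, 3.35 and 5.70 RPKM in control. Its groups overlapped, and its log2 difference of 0.48 (SE 0.33) was 0.20 without control replicate 2. LPIN1 and LPIN2, phosphatidate phosphatases that make diacylglycerol, had overlapping groups at -0.30 (SE 0.22) and 0.06 (SE 0.21), and AGPAT3, another acyltransferase, at 0.00 (SE 0.19). LPIN1 lay at 1.40 to 2.05 RPKM in knockdown and 1.99 to 2.34 RPKM in control, LPIN2 at 14.6 to 17.4 RPKM in knockdown and 13.6 to 19.0 RPKM in control, and AGPAT3 at 4.67 to 5.61 RPKM in knockdown and 4.68 to 6.01 RPKM in control. The log2 difference of LPIN1 was -0.51 with knockdown replicate 1 left out and -0.08 with knockdown replicate 3 left out. Those of LPIN2 and AGPAT3 took either sign as single libraries were left out, between -0.06 and 0.21 for LPIN2 and between -0.12 and 0.12 for AGPAT3.

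**Figure D3:**
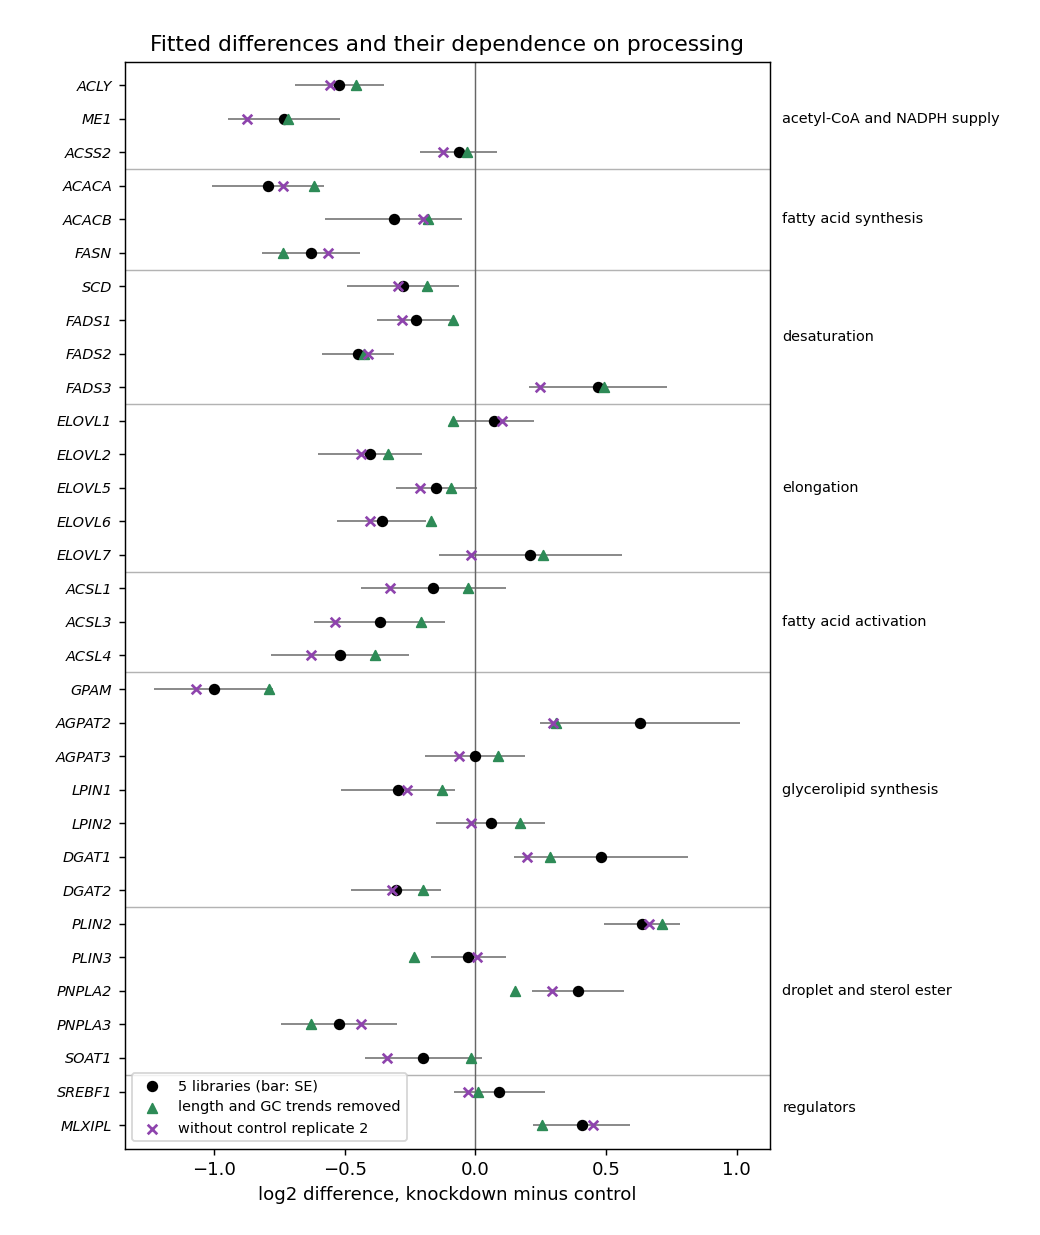
Log2 difference, knockdown minus control, of the 32 tested genes (x axis), with black points and SE bars for the 5 libraries, green triangles with length and GC trends removed and purple crosses without control replicate 2. GPAM, ACACA, ME1 and FASN stay below -0.5 under all 3 settings, and PLIN2 stays above 0.5.

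PLIN2 was the 1 of 32 tested members higher at limma's unadjusted p under 0.05, where 3.80% of all genes were higher. PLIN2 (ENSG00000147872, chromosome 9 from 19108375 to 19149290), the perilipin that coats most hepatocyte droplets, was at 125.7 and 125.6 RPKM in knockdown replicates 1 and 3, against 83.5, 83.3 and 75.0 RPKM in control replicates 1, 2 and 3. Its knockdown libraries were almost equal and stood well above all controls, with a log2 difference of 0.64 (SE 0.15, limma adjusted p = 0.71, unadjusted p = 0.0058) that was 0.72 with length and GC trends removed. The knockdown to control ratio of mean RPKM was 1.56. PLIN3, a perilipin found on small new droplets, was at 99.8 and 98.1 RPKM in knockdown and 97.7, 105 and 99.4 RPKM in control, a log2 difference of -0.03 (SE 0.14) that was -0.23 with length and GC trends removed and turned to 0.01 without control replicate 2.

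The lipases and the sterol esterifier varied. PNPLA2, the adipose triglyceride lipase that starts droplet breakdown, was at 24.3 and 28.9 RPKM in the knockdown libraries, against 21.9, 17.4 and 21.1 RPKM in the controls. Its log2 difference of 0.39 (SE 0.18) was 0.15 with length and GC trends removed. PNPLA3, a droplet protein and target of SREBP-1 in liver, was at 1.30 and 1.69 RPKM in knockdown, against 1.95, 2.70 and 2.45 RPKM in control, a log2 difference of -0.52 (SE 0.22). These values rest on 39 and 83 reads in knockdown and 58, 17 and 155 reads in control, and PNPLA3 shares 148 exon bases with its neighbour SAMM50 on the same strand. SOAT1, which esterifies cholesterol, was at 6.05 and 6.20 RPKM in knockdown and 5.79 to 9.12 RPKM in control, and overlapped at -0.20 (SE 0.22), or at -0.34 without control replicate 2 and -0.03 without control replicate 3. CIDEB, a droplet and lipoprotein factor, had 4 and 0 reads in knockdown and 1, 0 and 3 reads in control, too few for a comparison, and 1954 of its exon bases are shared with NOP9.

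Of the 2 transcription factor genes tested, MLXIPL stood above all controls and SREBF1 overlapped with them. SREBF1 (chromosome 17 from 17810399 to 17837002), which encodes SREBP-1, was at 38.6 and 37.5 RPKM in knockdown replicates 1 and 3, against 39.4, 30.1 and 38.2 RPKM in control replicates 1, 2 and 3. Both knockdown libraries lay inside the range of the controls, and the log2 difference of 0.09 (SE 0.17) turned to -0.03 without control replicate 2. SREBF1 shares 556 exon bases with RAI1. MLXIPL, which encodes ChREBP, was at 3.55 and 4.45 RPKM in knockdown, against 2.90, 3.09 and 2.67 RPKM in control, a log2 difference of 0.41 (SE 0.19) without overlap. It was 0.26 without knockdown replicate 3 and 0.26 with length and GC trends removed. THRSP, a small protein tied to lipogenesis, had 0 reads in all 5 libraries, and 3 reads would have been 0.130 to 1.31 RPKM at these depths, a limit that covers counting error only.

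By level, SCD stood far above the rest in both groups, at 336 ± 59.6 RPKM (SD, n = 2) in knockdown and 406 ± 43.7 RPKM (SD, n = 3) in control. In the controls PLIN3, AGPAT2, FASN and PLIN2 followed at 101, 96.0, 87.7 and 80.6 RPKM, neighbours that did not differ beyond their spread. In the knockdown libraries the means after SCD were AGPAT2 at 144 RPKM, PLIN2 at 125.7 RPKM, PLIN3 at 98.9 RPKM, ELOVL1 at 76.4 RPKM and FASN at 57.0 RPKM. AGPAT2 lay below PLIN2 in knockdown replicate 1 and above it in knockdown replicate 3, so these neighbours did not differ beyond their spread. Of the 12 members below all controls, 9 were lower in knockdown replicate 3 than in knockdown replicate 1. The same share over all genes was not counted.

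Other genes of the pathway, 66 in all, were counted from a separate list. Of these, 48 were tested. Their median log2 difference was -0.01, with 23 genes above 0 and 25 below 0, and none passed limma's test at an adjusted p under 0.05. For 10 of them, or 20.8%, the knockdown libraries were both higher than any control, against 14.3% of all genes, and for 9, or 18.8%, both were lower, against 13.6% of all genes. Among the 19 with groups apart, the droplet gene HILPDA, which inhibits the lipase encoded by PNPLA2, had the largest difference. It was at 19.5 and 28.8 RPKM in knockdown, against 9.05, 10.7 and 10.8 RPKM in control, a log2 difference of 1.19 (SE 0.21, limma adjusted p = 0.71). G0S2, another inhibitor of that lipase, was at 2.24 and 3.27 RPKM in knockdown, against 1.63, 0.592 and 1.41 RPKM in control. The gene had 18 and 43 reads in knockdown and 13, 1 and 24 in control. It stood higher by 0.96 (SE 0.36), or by 0.67 without control replicate 2.

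The INSIG genes, whose products hold SREBP in the endoplasmic reticulum, lay in opposite directions. INSIG2 was at 17.6 and 17.1 RPKM in knockdown, against 9.68, 7.53 and 11.1 RPKM in control, a log2 difference of 0.86 (SE 0.20). INSIG1, itself an SREBP target, was at 10.7 and 11.1 RPKM in knockdown, against 15.0, 13.4 and 19.7 RPKM in control, a log2 difference of -0.52 (SE 0.20). INSIG2 thus stood above and INSIG1 below all controls, in both knockdown libraries. FABP1, the fatty acid binding protein of the liver, was at 68.9 and 86.1 RPKM in knockdown, against 51.5, 53.0 and 29 RPKM in control, a log2 difference of 0.84 (SE 0.31). PCYT2, of phosphatidylethanolamine synthesis, was at 10.4 and 9.85 RPKM in knockdown, against 15.6, 12.9 and 12.7 RPKM in control, a log2 difference of -0.42 (SE 0.16). Of the 16 tested genes of supply and the elongation cycle, 6 lay below all controls and 1 above, against 13.6% of all genes below and 14.3% above. Of the other 10 glycerolipid genes tested, 2 lay below and 1 above. Of the other 10 droplet genes tested, 0 lay below and 2 above, and of 12 pathway regulators 1 lay below and 6 above, against the same shares of all genes.

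**Figure D4:**
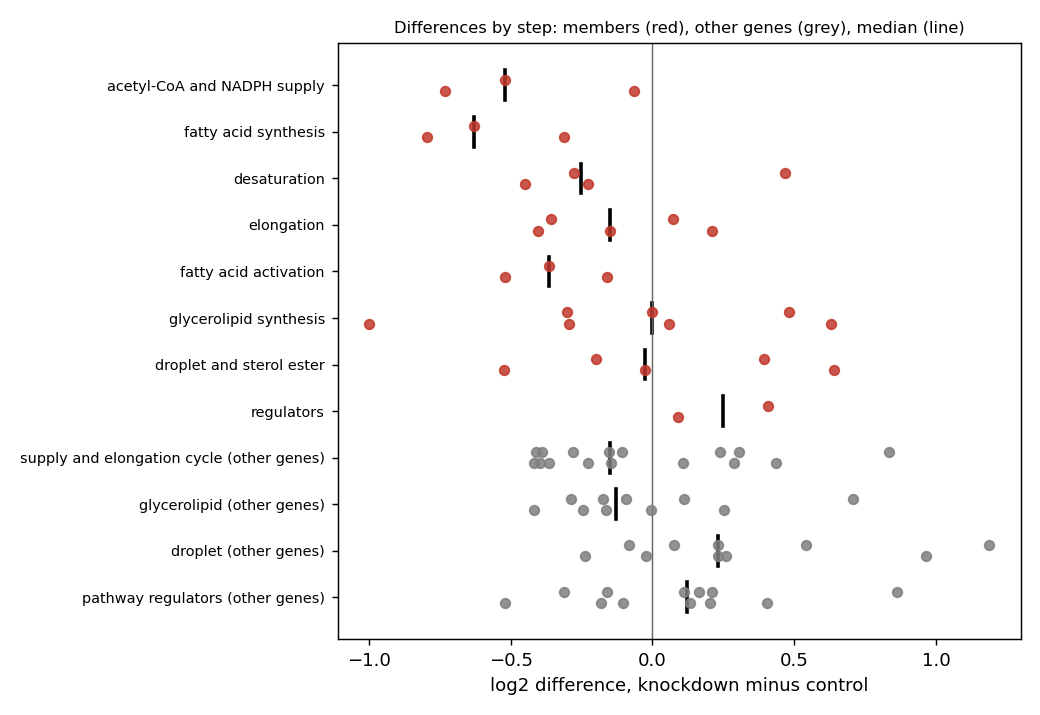
Log2 difference, knockdown minus control, of each tested gene (x axis) by step, with the listed lipid genes in red, the other pathway genes in grey and the median of each row as a black line. Among the listed genes the medians of supply and synthesis, of 3 genes each, are -0.52 and -0.63, and that of droplet and sterol ester is -0.03. Among the other genes the median is -0.15 for supply and the elongation cycle and 0.23 for droplet genes.

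Sites for miR-19, the letters TTTGCAC that match the seed, were searched in the longest 3' UTR of each gene's protein-coding transcripts in GENCODE, on the transcript strand. Of the 32 tested members, 7 (21.9%) held at least 1, against 15.25% of 11767 tested genes with a 3' UTR, and the median 3' UTR was 1697 bases long in the members and 1327 bases in all these genes. The 7 were SCD, ELOVL5, ACSL3, ACSL4, ACACA, GPAM and LPIN1, whose 3' UTRs were 1729 to 3901 bases long. All 7 had a log2 difference below 0, with a median of -0.37, and 15 of the 25 members without a site were below 0, with a median of -0.06. The same medians over all genes were -0.09 with a site and 0.01 without. With length and GC trends removed the 7 members ranged from -0.79 for GPAM to -0.09 for ELOVL5. The part of length and GC content in this contrast was not tested. A match is a description of these letters, and no binding was measured. The sites of the 3 members whose groups lay apart are shown on the transcript strand (minus in GRCh38 for all), with the match in capitals, because these are the site-bearing members with no overlap between groups. The eighth capital in ACACA is the A that follows the match.
ACACA, chr17:37085778-37085806: taaccctgtagTTTGCACAcaagaacgag
GPAM, chr10:112150728-112150756: gggaaaccaagTTTGCACctggaaactta
ACSL4, chrX:109642621-109642649: tactgttattcTTTGCACtttttcttaat
ACSL4, chrX:109642139-109642167: tatctcagataTTTGCACccccaatctgc
ACSL4, chrX:109641360-109641388: ttgtttttaagTTTGCACtcaaatcttaa

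Promoters, 250 bases before to 50 after the start in RefSeq (GRCh38.p14), were matched for 31 of the 35 members. Motifs were searched on both strands. The members were set against all 35116 promoters, whether or not their genes were tested here, and shares among tested genes were not counted. TCACNCCAC, a form of the sterol response element bound by SREBP, was found in 2 members, ACSL1 and PNPLA2, or 6.45%, against 1.13% of 35116 promoters. The CCAAT box, letters CCAAT, was in 17 members, or 54.8%, against 34.6% of promoters. The E-box CACGTG was in 3 members, ELOVL5, LPIN2 and PLIN2, or 9.68%, against 7.26% of promoters. ACGTG, the core letters bound by hypoxia-inducible factors and part of that E-box, was in 10 members, or 32.3%, against 21.4% of promoters. The members with the largest differences in each direction are shown, GPAM with its CCAAT box on the opposite strand in capitals and PLIN2 with its E-box and its other ACGTG in capitals, both on the minus strand of the genome.
GPAM, chr10:112183716-112184015: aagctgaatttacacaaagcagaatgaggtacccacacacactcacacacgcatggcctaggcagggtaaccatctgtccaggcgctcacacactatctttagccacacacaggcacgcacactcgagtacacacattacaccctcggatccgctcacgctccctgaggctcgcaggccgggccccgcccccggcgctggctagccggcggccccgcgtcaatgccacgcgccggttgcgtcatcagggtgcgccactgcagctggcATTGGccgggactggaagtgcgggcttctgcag
PLIN2, chr9:19127443-19127742: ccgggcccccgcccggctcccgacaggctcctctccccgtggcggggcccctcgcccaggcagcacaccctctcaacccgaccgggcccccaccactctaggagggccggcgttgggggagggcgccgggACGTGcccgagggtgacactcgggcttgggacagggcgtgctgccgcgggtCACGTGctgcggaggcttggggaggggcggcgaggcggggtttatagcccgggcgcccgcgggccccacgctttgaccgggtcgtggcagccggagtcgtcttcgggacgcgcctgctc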

How the data were processed

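RNA of 6 libraries (3 knockdown, 3 control) was measured by sequencing. The authors deposited 1 table of RPKM values, per the labels and the file itself; HISAT2 and GRCh38 were used, per the submitters' processing notes. Which counter and annotation were used, whether strand counted and what was filtered is not stated in any label or header. All 58676 gene IDs matched GENCODE release 29. Multiplied by summed exon length, 100% of nonzero values in 5 libraries came out whole in units of the smallest step (tolerance 0.002), which gave reads per gene. In knockdown replicate 2 only 0.42% did, and that column was left out.

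limma 3.58.1 (R 4.3.3; lmFit, eBayes with trend, two-sided) was fitted to log2(RPKM + 0.5) of the 15408 genes that reached 0.5 RPKM in 3 or more of the 5 libraries, with Benjamini-Hochberg adjustment over all of them. This scale understates changes of low genes. The model was run on simulated reads with known changes as a check of the code. That check does not give its power for the smaller differences reported here. Separate cultures are not named in the labels, so the spread behind each p-value is that among these libraries and may be technical. Named in full were the genes of the defining steps and members with groups apart; of the other pathway genes, at most 6 with groups apart, taken by size. The members and lists were chosen with earlier results of these data known. Alternatives were other pseudocounts (0.1 and 1), filters, scalings, limma voom on the recovered reads, removal of length and GC trends, the replicate number as a block, all 6 columns and leaving out each library. Counts of members with groups apart under these settings were chosen after seeing the data.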

Additional observations from a re-analysis of the deposited data

How the results depend on the processing

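Under 16 alternatives no member passed an adjusted p of 0.05. Over all genes, voom with sample weights on the recovered reads called 3 genes higher and 1 lower, and the other settings without a block called 0 and 0. With the replicate number as a block, which leaves 1 residual degree of freedom, limma called 33 genes higher and 7 lower. None of them was a member, and SREBF1 turned to -0.0288. Control replicate 2 stands alone in its block, so the differences there are those found without control replicate 2. The correlation of deviations from the group means was -0.168 for the libraries numbered 1 and 0.018 for those numbered 3. With 2 knockdown libraries the deviations of one mirror those of the other, so these correlations cannot settle whether numbers pair samples. No label says that a number marks a shared culture. Leaving out 1 library moved the members' median between -0.271 and -0.0878 and the count of members below 0 between 20 and 24, with 0 to 0 genes or members called. Members with the knockdown side below all controls numbered 12 to 19 and those above 4 to 7 when 1 library was left out, where fewer libraries make such separation easier. Without control replicate 2 they were 16 (50.0%) against 25.8% of all genes below, and 4 (12.5%) against 18.6% above. With trimmed mean scaling 15 members lay below and with median ratio scaling 16, each against 14.9% of all genes. ACSS2, ACSL3 and ELOVL5 were then among them. Under either scaling 5 lay above, against 16.0%. With length and GC trends removed 11 lay below, against 14.8%, and 3 above, against 15.2%. With all 6 columns as deposited the members' median was -1.47 and that of all genes -0.91, and 12 of the 32 tested members turned sign, SOAT1, ELOVL1, ELOVL7, AGPAT2, LPIN2 and these: DGAT1 to -0.48, PLIN2 to -2.02, PNPLA2 to -1.52, SREBF1 to -1.998, FADS3 to -0.94, ELOVL2 to 0.36 and MLXIPL to -0.0626, since that column's values do not follow the gene IDs. Leaving out 1 library moved SREBF1 between -0.0288 (without control replicate 2) and 0.163. Over all 32 tested members and 16 alternatives the sign was the same in 480 of 512 values. Outside the 6 columns the sign turned in 20 of 480 values, in 7 members: ELOVL1, ELOVL7, ACSL1, AGPAT3, LPIN2, PLIN3 and SREBF1. Part of this agreement was fixed in advance, because the other filters leave each member's log2 difference unchanged. The replicate block repeats the differences found without control replicate 2, so the same turned signs are counted again. With 1 knockdown library left, its spread is taken from the controls. Depth limits ACSL5, CIDEB, PNPLA3 and every value of control replicate 2.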
